A study of Mus musculus with 6 samples.

Results

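The miRNA entries described here are those with numbers from 1000 to below 5000 that an array of mouse miRNAs detected in embryonic stem cells or embryoid bodies. They were chosen by name and by the scanner's detection flag: the number had to lie in this range, with 8 numbers excepted, and both arrays of some group had to detect the entry. The array carries 255 entries that the name rule takes, and 89 of them met the detection rule, which is 34.9%. In all, 484 of the 1247 mouse miRNA entries on the array were detected in this way and were tested. Since the detection flags of these same arrays chose the 89 entries, an entry detected in a single group had to differ between groups, and such entries are described apart.

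Total RNA came from 3 groups with 2 arrays each. Embryoid bodies (EBs), the aggregates that embryonic stem cells form when they begin to differentiate, were kept for 16 h under hypoxia in the first group and for 16 h under normoxia in the second. The third group held mouse embryonic stem cells (mESCs) kept for 16 h under normoxia. The labels name C57 mESCs. The mESCs grew on fibroblast feeders treated with mitomycin C and with the cytokine LIF, and the EBs were made in hanging drops with neither. The labels give no oxygen level, and they do not say whether the 2 arrays of a group come from separate cultures, so p-values measure the spread between arrays, which may be technical.

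MicroRNAs are short RNAs cut from a hairpin precursor. Loaded into an Argonaute protein, a miRNA pairs with messenger RNAs mainly through its seed, bases 2 to 8 from the 5′ end, and lowers their translation and stability. Names carry a serial number given in order of discovery, so low numbers belong largely to conserved and long-studied miRNAs, while high numbers came mostly from deep sequencing. Some high-numbered entries were later questioned as pieces of other abundant RNAs. The suffixes 5p and 3p name the arms of a hairpin, and letters after the number mark closely related sequences.

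Signals are in scanner units, scaled between arrays by the 75th percentile over the 391 entries that all 6 arrays detected. Before scaling, that percentile was 219 and 175 in hypoxic EBs, 222 and 237 in normoxic EBs and 137 and 140.0 in mESCs. Of 8 miRNAs listed as typical of mESCs, 7 were found on the array by name, and all 7 were detected on all 6 arrays. Their signals summed to 17698 and 17750 in hypoxic EBs, 20719 to 23055 in normoxic EBs and 26944 to 28200 in mESCs. No entry carries the remaining name, miR-290a-3p, and the tested entry miR-290-3p is not in these sums. Of 9 fibroblast feeder miRNAs, 3 were detected on all 6 arrays and 3 on none (miR-143-3p, miR-199a-5p and miR-10b-5p). The feeder list summed to 241 to 257 units in hypoxic EBs, 296 to 325 in normoxic EBs and 460 to 485 in mESCs. Most of each sum was miR-21a-5p, with means of 150.1, 190.2 and 404 units in these groups. The feeder list did not move as one, since miR-125b-5p averaged 56.6, 69.9 and 25.4 units and was higher in hypoxic EBs than in mESCs (limma adjusted p = 0.000853), and miR-199a-3p was detected on both arrays of each EB group and on no mESC array. Of 4 muscle miRNAs, 3 were detected on no array. The hypoxia-induced miR-210-3p read 171 and 181 units in hypoxic EBs, 79.3 and 73.6 in normoxic EBs and 154 and 142 in mESCs. Per the array names the mESC arrays lay in another row of the slide than all EB arrays, so an effect of the row and one of the cell state cannot be told apart.

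RefSeq mature sequences matched 63 of the 89 entries, and the ones below carry the results. Each is written 5′ to 3′ with the seed, bases 2 to 8, in capitals. First come the brightest entries that have a sequence.
miR-3963: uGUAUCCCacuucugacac
miR-3968: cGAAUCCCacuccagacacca
miR-2861: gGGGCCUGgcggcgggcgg
miR-2137: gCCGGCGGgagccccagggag
In GRCm38.p6 these lie on the minus strand at chr3:151023839-151023857, on the minus strand at chr11:115447969-115447989, on the minus strand at chr2:32712819-32712837 and on the plus strand at chrX:72992113-72992133. The sequences of miR-3963 and miR-3968 share the 8-base stretch aucccacu, which no other of the 1679 mature sequences in the table holds. The miR-3968 hairpin lies within the span of Trim80 and that of miR-2137 within Zfp185. The table places the hairpin genes of miR-2861 and miR-3960 11 bases apart on chromosome 2.

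Next come the lettered entries of number 3473 and a pair with repeated UG.
miR-3473a: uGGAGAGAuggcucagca
miR-3473b: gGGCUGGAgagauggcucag
miR-3473c: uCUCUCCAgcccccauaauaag
miR-3473e: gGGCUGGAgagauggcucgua
miR-1187: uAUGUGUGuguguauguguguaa
miR-3082-5p: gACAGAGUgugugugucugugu
The stretch shared by miR-3473b and miR-3473e is 18 bases long and includes their common seed GGCUGGA. A stretch of 16 bases is shared by miR-3473a and miR-3473b, and 14 bases by miR-3473a and miR-3473e, but in miR-3473a it begins at the first base and in the others further in, so the seeds differ. The first 12 bases of miR-3473c, ucucuccagccc, are the reverse complement of the first 12 of miR-3473b and miR-3473e. The hairpins of miR-3473a, b, c and e lie within Syap1, Ccdc162, Traf5 and Rbks.

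Last come entries that differed between groups.
miR-1306-3p: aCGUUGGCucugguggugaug
miR-3472: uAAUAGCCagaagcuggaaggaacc
miR-3085-5p: aGGUGCCAuuccgagggccaagagu
miR-1945: uCUUCGCGgguacugucgggac
miR-1947-3p: gCACUGAGcuagcucucccucc
miR-1943-5p: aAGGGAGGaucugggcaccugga
miR-1943-3p: cAGGUGCCagcuccucccuuc
miR-1983: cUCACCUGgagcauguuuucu
miR-3069-3p: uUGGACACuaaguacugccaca
The hairpin of miR-1306 lies within Dgcr8, the gene of the protein that binds primary miRNA transcripts for Drosha, at chr16:18284248-18284268 for the mature 3p arm. That of miR-3069 lies within Snhg10 and Scarna13, a small RNA gene of Cajal bodies. The seed of miR-1947-3p, CACUGAG, is also that of miR-674-5p, and the seed of miR-1943-5p, AGGGAGG, is also that of miR-149-3p. Of the 63 entries with a sequence, 55 lie within the span of another gene and 49 within a protein-coding gene. The gene table gives no strand, so whether host and hairpin run the same way was not tested.

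By number family, 7 of the 89 entries are numbered from 1000 to below 1300, 10 from 1300 to below 1900, 25 from 1900 to below 2000, 2 from 2000 to below 3000, 24 from 3000 to below 3100 and 21 from 3100 to below 4000. The array carries no entry numbered from 4000 to below 5000. All 89 were detected on both hypoxic EB arrays, 79 on both normoxic EB arrays and 70 on both mESC arrays, and these 70 were detected on all 6 arrays. Just outside the rule lay miR-1935 alone, detected on 1 hypoxic EB array at 3.82 units before scaling, while the other 165 entries of the number range were detected on no array. The dimmest entry inside it, miR-1186b, averaged 2.92 units in hypoxic EBs.

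Among the 70 entries detected on all 6 arrays, most differences between groups ran upwards in hypoxic EBs. Against normoxic EBs, 38 of the 70 were higher and 4 lower in hypoxic EBs in limma's test over all 484 entries (adjusted p under 0.05). Of all tested entries, 32.9% were called higher and 25.2% lower in this comparison. Against mESCs, 48 of the 70 were higher and 6 lower in hypoxic EBs, where 41.3% and 33.7% of all tested entries were called. Between normoxic EBs and mESCs, 23 were higher and 8 lower in normoxic EBs, beside 26% and 25.2% of all tested entries. The median log2 difference of the 70 was 0.37 for hypoxic over normoxic EBs, 0.55 for hypoxic EBs over mESCs and 0.21 for normoxic EBs over mESCs. The same medians over all 391 entries detected on all arrays were 0.09, -0.07 and 0.01. Of these 391, chosen like the 70, 134 were higher and 110 lower in hypoxic than in normoxic EBs. Against mESCs, 149 were higher and 159 lower in hypoxic EBs, and 89 were higher and 116 lower in normoxic EBs. The 3 comparisons share arrays pairwise, so none is independent of the others. In such bulk RNA, fewer cells of a type and less RNA per cell cannot be told apart.

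**Figure D1:**
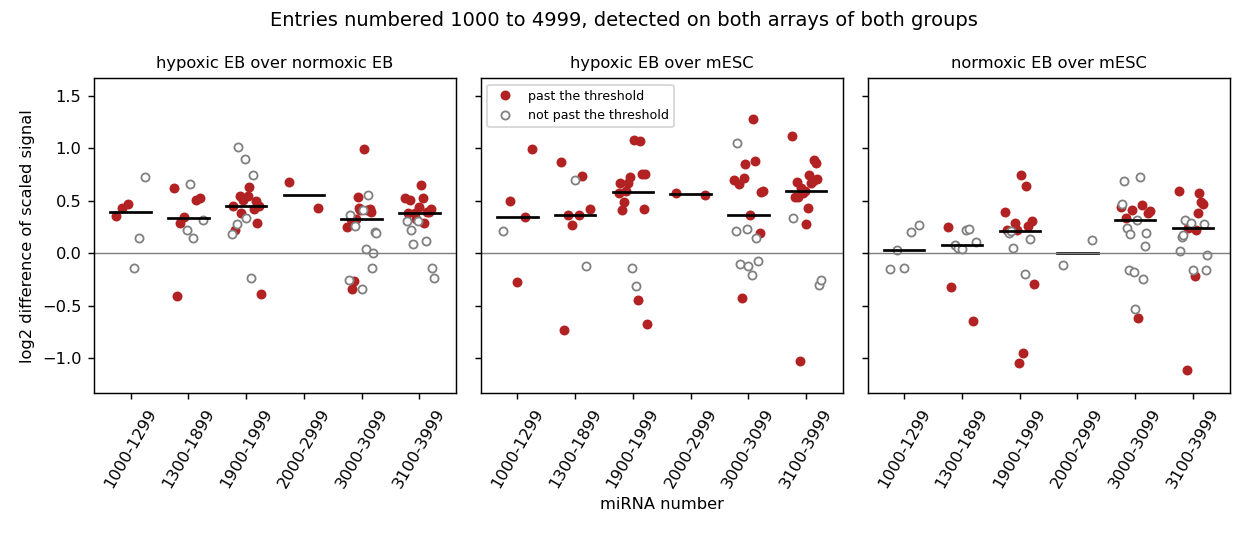
Log2 difference of scaled signal (vertical axis) for each entry detected on both arrays of both groups compared, by number family (horizontal axis), with 1 panel per comparison; filled points passed limma's test at an adjusted p under 0.05, open points did not, and bars are family medians. In hypoxic over normoxic EBs all 6 family medians lie above 0, between 0.33 and 0.56, and in hypoxic EBs over mESCs they lie between 0.35 and 0.59.

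Array scaling decides much of the count for hypoxic over normoxic EBs. Without scaling, the median log2 difference of all tested entries measured in both groups was -0.15 for hypoxic over normoxic EBs, 0.41 for hypoxic EBs over mESCs and 0.73 for normoxic EBs over mESCs, against 0.08, -0.09 and 0.00 as scaled. With scaling to the array's hur control features it was 0.32, 0.25 and 0.11. Of the 38 entries among the 70 that were higher in hypoxic than in normoxic EBs, 2 were also called under all 6 other scalings, miR-2137 and miR-3472. Among these 6, no scaling and the authors' normalized ratio gave the same differences and are not separate checks. Of the 48 called higher in hypoxic EBs than in mESCs 41 were, and of the 23 called higher in normoxic EBs than in mESCs 22 were. Among lower calls, miR-3106-5p alone was kept under all 6, in both comparisons with mESCs.

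A comparison within each array does not depend on a single scaling factor. Each of the 70 entries was set against the 3 entries numbered under 1000 that were nearest to it in mean log2 signal over the 6 arrays, 141 different entries in all. Different probes bind with different strength, so the size of the gap on 1 array has no meaning of its own and the shift of the gap between arrays is what counts. The median gap was 0.27 and 0.43 in hypoxic EBs, -0.02 and 0.06 in normoxic EBs and -0.34 and -0.31 in mESCs. The 3 groups did not overlap, and the order was the same in each of the 6 number families, closest between normoxic EBs and mESCs in the 2 entries numbered from 2000 to below 3000, at -0.33 and -0.23 in normoxic EBs and -0.43 and -0.34 in mESCs. No lower-numbered entry lay near miR-3963 and miR-3968, whose farthest matches were 4.70 and 2.54 log2 units away, while those of the other 68 were within 0.33. Over these 68, a choice made after the values were seen, the median gap was 0.27 and 0.42 in hypoxic EBs, -0.04 and 0.06 in normoxic EBs and -0.35 and -0.32 in mESCs. Of the 141 matched lower-numbered entries, 34 were higher and 59 lower in hypoxic than in normoxic EBs, with a median of -0.16. Against mESCs, 30 were higher and 86 lower in hypoxic EBs and 22 higher and 59 lower in normoxic EBs, with medians of -0.36 and -0.17. Whether number itself, rather than a property that goes with it, carries this gap was not tested.

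**Figure D2:**
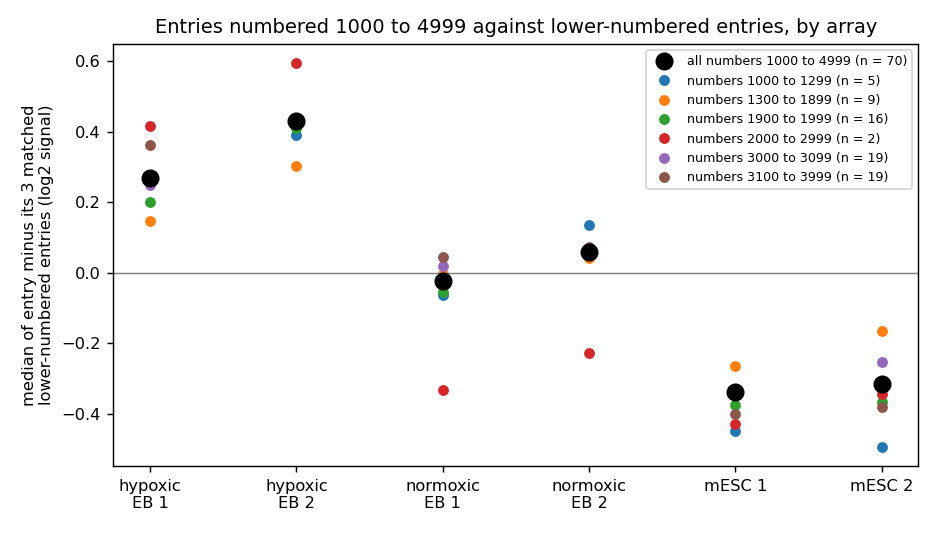
Median over entries of the log2 signal of a high-numbered entry minus the mean of its 3 matched lower-numbered entries (vertical axis), on each of the 6 arrays (horizontal axis), for all 70 entries (black) and by number family (colours). The black points lie at 0.27 and 0.43 in hypoxic EBs, near 0 in normoxic EBs and at -0.34 and -0.31 in mESCs.

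Base composition was one property that went with number. The G and C content of the 63 entries with a sequence had a median of 63.6%, between 34.8% in miR-1187 and 94.7% in miR-2861, while the 245 tested entries numbered under 1000 with a sequence had a median of 47.8%. Across the 52 high-numbered entries with a sequence that were detected on all 6 arrays, G and C content and the log2 difference of hypoxic over normoxic EBs had a Pearson r of 0.37 (Spearman's rho 0.27). Across 200 lower-numbered entries it was 0.49 (rho 0.47). For hypoxic EBs over mESCs the values were 0.34 and 0.53, and for normoxic EBs over mESCs 0.12 and 0.27. These correlations run across entries read on the same 6 arrays, which are not independent replicates.

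Among entries with 60% to 70% G and C, 23 high-numbered ones had a median log2 difference of 0.40 for hypoxic over normoxic EBs and 31 lower-numbered ones 0.31. Among those with 70% or more, the medians were 0.41 in 10 high-numbered and 0.39 in 10 lower-numbered entries. At 40% to 50%, they were -0.20 in 6 high-numbered entries and -0.30 in 66 lower-numbered ones. Between these, at 50% to 60%, 12 high-numbered entries had a median of 0.35 and 53 lower-numbered ones -0.10. At 30% to 40% the single high-numbered entry, miR-1187, had a difference of 0.36 and 38 lower-numbered ones a median of -0.30. High-numbered and lower-numbered entries thus differed in sign at 30% to 40% and at 50% to 60% and had the same sign in the other bins.

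A second matching, chosen after these values were seen, paired the 52 entries with the 3 lower-numbered entries nearest in G and C content. The median distance in content was 0, and lower-numbered entries were often tied. At 63.6%, tied entries ran from -0.41 in miR-106b-3p to 1.38 in miR-711 for hypoxic over normoxic EBs. The values below thus depend on which tied entries were taken, and how far was not tested. Entry by entry, the median excess of the hypoxic over normoxic EB difference was then 0.11, against 0.35 with matching by signal. The excess for hypoxic EBs over mESCs was 0.32 with matching by composition and 0.68 by signal, and for normoxic EBs over mESCs 0.09 and 0.30. The median gap within an array, matched by composition, was 0.46 and 0.58 in hypoxic EBs and 0.007 and 0.10 in normoxic EBs. In mESCs it was 0.098 and 0.045, so that mESCs overlapped normoxic EBs. Matched by signal, the same 52 entries gave 0.26 and 0.43, -0.02 and 0.07, and -0.33 and -0.31 in these groups. Between the EB groups the median gap thus shifted more with matching by composition, while the entry-by-entry excess was smaller. The 2 summaries went different ways, and why was not tested. The part of base composition in these differences was not tested further.

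**Figure D3:**
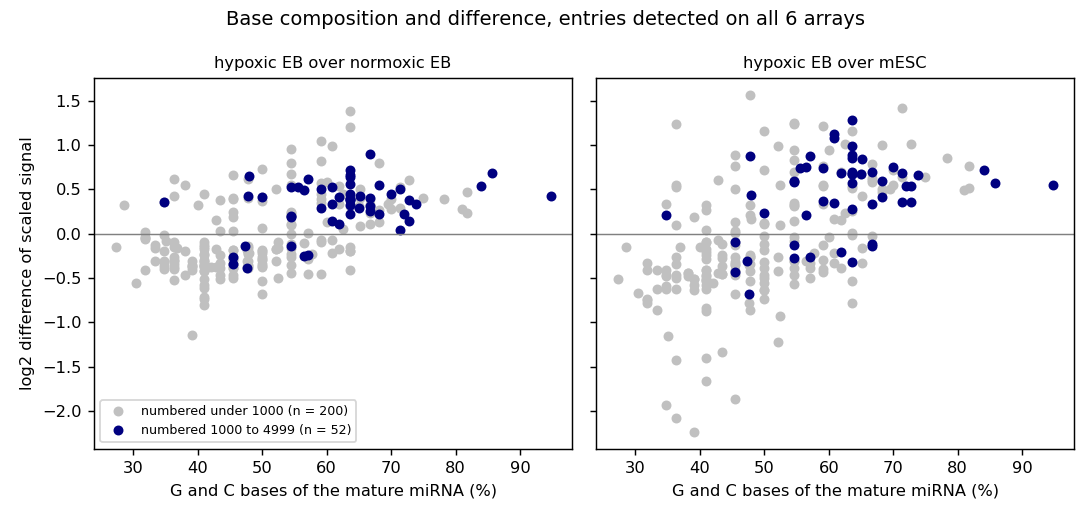
Log2 difference of scaled signal (vertical axis) against the G and C content of the mature miRNA in percent (horizontal axis) for hypoxic over normoxic EBs (left) and hypoxic EBs over mESCs (right); navy points are 52 entries numbered from 1000 and grey points 200 numbered under 1000, all detected on all 6 arrays. Most navy points lie at the GC-rich end, where grey points also lie mostly above 0.

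The brightest high-numbered entries gave much of the signal on every array. The entry miR-3963 read 111928 and 138541 units in hypoxic EBs, 139558 and 135339 in normoxic EBs and 154848 and 153045 in mESCs. One hypoxic EB array read lowest and the other lay within the normoxic EB range. It made up 27.0% to 30.1% of the summed signal of an array and ranked first or second on each. None of its comparisons passed the test, with limma adjusted p-values of 0.312 for hypoxic over normoxic EBs, 0.0612 for hypoxic EBs over mESCs and 0.28 for normoxic EBs over mESCs.

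For miR-3968 the signals were 25081 and 30348 units in hypoxic EBs, 32994 and 32174 in normoxic EBs and 32849 and 33202 in mESCs. Both hypoxic EB arrays read below all others as scaled, though without scaling hypoxic EBs lay 0.24 above mESCs on the log2 scale, and again no comparison passed, with limma adjusted p-values of 0.102 against normoxic EBs, 0.0732 against mESCs and 0.911 for normoxic EBs against mESCs. For hypoxic over normoxic EBs the 95% confidence interval of the ratio ran from 0.736 to 1.12 for miR-3963 and from 0.701 to 1.02 for miR-3968. Apart from these 2 entries, all other high-numbered ones together made up 5.52% to 5.76% of the summed signal in hypoxic EBs, 4.20% to 4.37% in normoxic EBs and 3.56% to 3.62% in mESCs.

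The neighbours miR-3960 and miR-2861, described in mouse osteoblasts as promoters of bone cell differentiation, were next. In hypoxic EBs miR-3960 read 4979 and 5989 units, against 4125 and 4029 in normoxic EBs and 3267 and 3440 in mESCs. Its groups did not overlap, in the order hypoxic EBs, normoxic EBs, mESCs. It was 1.34-fold higher in hypoxic than in normoxic EBs (95% CI 1.11 to 1.62, limma adjusted p = 0.0265) and 1.63-fold higher than in mESCs (1.35 to 1.97, adjusted p = 0.00378). Normoxic EBs did not differ from mESCs beyond the threshold (1.22-fold, adjusted p = 0.0779).

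Levels of miR-2861 were 3489 and 4045 units in hypoxic EBs, 2828 and 2752 in normoxic EBs and 2527 and 2596 in mESCs, in the same order as its neighbour. The rise was 1.35-fold over normoxic EBs (95% CI 1.15 to 1.57, limma adjusted p = 0.0174) and 1.47-fold over mESCs (1.25 to 1.71, adjusted p = 0.00446). Without scaling, or without either normoxic EB array, the rise of both entries over normoxic EBs was no longer past the threshold, and that of miR-3960 was lost without either mESC array too. With 1 array left out, the adjusted p reached 0.101 for miR-3960 and 0.0671 for miR-2861. Both stood past it over mESCs in all 19 alternative settings.

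The other entry numbered from 2000 to below 3000, miR-2137, read 1256 and 1441 units in hypoxic EBs, 846 and 832 in normoxic EBs and 895 and 917 in mESCs. The hypoxic EB arrays stood above all others, and the normoxic EB arrays were the lowest as scaled, but 0.62 above mESCs on the log2 scale without scaling. It was 1.60-fold higher in hypoxic than in normoxic EBs (95% CI 1.38 to 1.86, limma adjusted p = 0.00741) and 1.49-fold higher than in mESCs (1.28 to 1.72, adjusted p = 0.00337). Among the 10 brightest entries it was the only one called for hypoxic over normoxic EBs under all 6 other scalings. It stands, with miR-2861 and miR-3960, in a list drawn up here by number, of entries that may come from abundant RNA fragments. Whether they do was not tested. Of that list's 9 entries, 8 are on the array. They summed to 54499 and 64334 units in hypoxic EBs, 54617 and 53241 in normoxic EBs and 45258 and 45497 in mESCs. Brightest of them was miR-5109, with means of 27209, 20165 and 13985 units in these groups. The list did not move as one, since miR-5097 averaged 7693, 9607 and 10704 units and miR-5100 12760, 15625 and 13100. Both were lowest in hypoxic EBs as scaled, but neither differed from normoxic EBs beyond the threshold (limma adjusted p = 0.0582 and 0.0805).

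**Figure D4:**
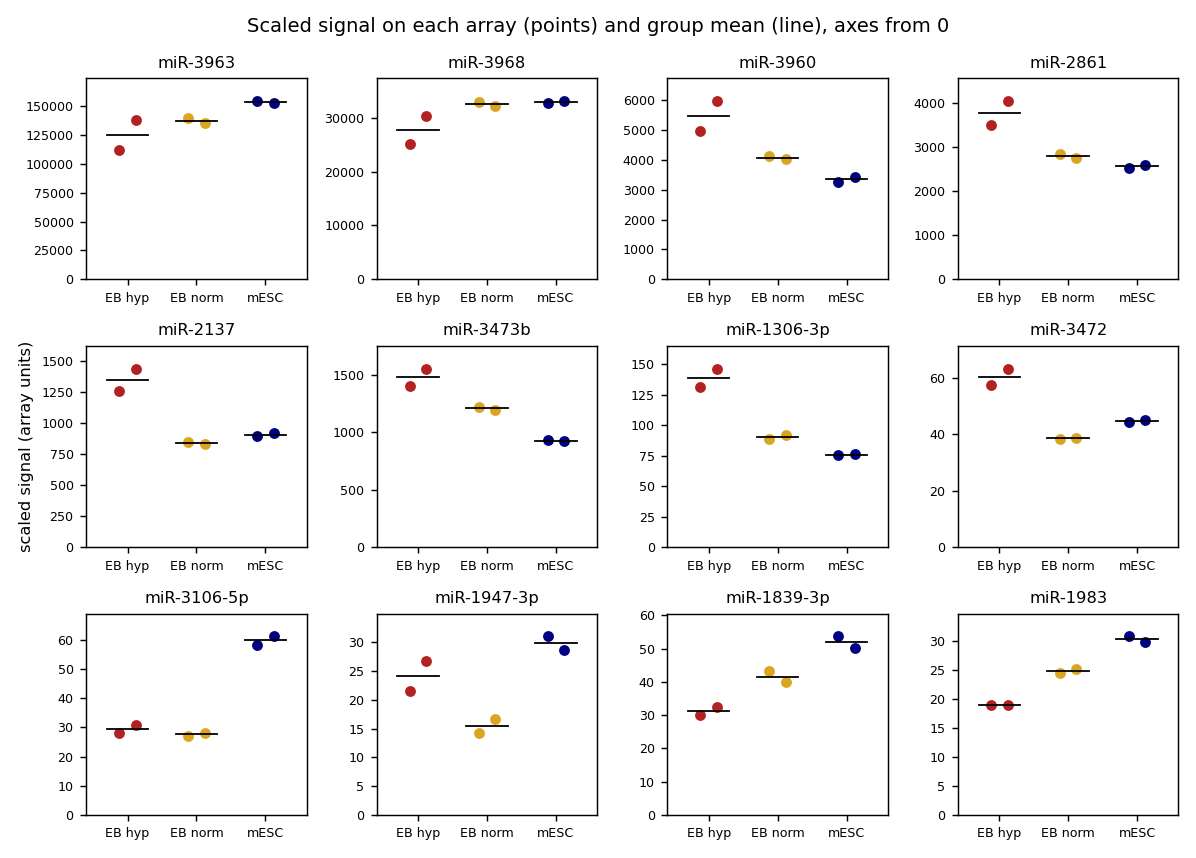
Scaled signal in array units (vertical axes, each starting at 0) for 12 named entries on each array (points) with the group mean (line), in hypoxic EBs (red), normoxic EBs (gold) and mESCs (navy). The highest group is the hypoxic EBs for miR-3960, miR-2861, miR-2137, miR-3473b, miR-1306-3p and miR-3472, and the mESCs for miR-3106-5p, miR-1947-3p, miR-1839-3p and miR-1983, though without scaling hypoxic EBs lie above mESCs for miR-1947-3p and normoxic EBs above mESCs for miR-1839-3p and miR-1983.

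Among numbers below 1300, 2 of the 5 entries detected on all arrays were higher and none lower in hypoxic than in normoxic EBs, and 3 were higher and 1 lower in hypoxic EBs than in mESCs. Of all tested entries, 32.9% were called higher and 25.2% lower in the first comparison, and 41.3% and 33.7% in the second. One of the 2 entries higher than in normoxic EBs was miR-1187, which has a run of alternating U and G. It read 1117 and 1125 units in hypoxic EBs, 800 and 960 in normoxic EBs and 1002 and 939 in mESCs. The hypoxic EB arrays lay above the other 4, while normoxic EBs and mESCs overlapped. The rise over normoxic EBs was 1.28-fold (95% CI 1.06 to 1.55, limma adjusted p = 0.041), and it was no longer past the threshold when any array but the second normoxic EB one was left out (adjusted p up to 0.15).

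Among numbers from 3000 to below 3100, miR-3082-5p had nearly the same values, with 1155 and 1140 units in hypoxic EBs, 786 and 942 in normoxic EBs and 1017 and 937 in mESCs. The rise over normoxic EBs was 1.33-fold (95% CI 1.10 to 1.62, limma adjusted p = 0.0294), and it was lost without the same arrays (adjusted p up to 0.115). In all, 13 of the 19 alternative settings lost the rise of miR-1187 over normoxic EBs, and 13 lost that of miR-3082-5p. For miR-1187 the limma adjusted p was 0.579 without scaling and 0.618 with quantile normalization. The sequences of miR-1187 and miR-3082-5p share gugugugugu, and over the 6 arrays their log2 signals had an r of 0.996. Both also share 11 and 12 bases with miR-574-5p, a lower-numbered UG-rich miRNA, with r values of 0.994 for miR-1187 and 0.998 for miR-3082-5p. The 6 points behind each r are arrays of 3 groups, and whether these probes read the same RNA was not tested. The motif UGUGUG, searched on the miRNA strand with overlaps allowed, is in 28 of the 1679 mature sequences (1.67%), in 13 of the tested entries and in these 2 of the high-numbered ones. Among the 12 tested entries with it on all 6 arrays, the second normoxic EB array read above the first by a median of 0.13 on the log2 scale, while 274 entries without it had a median of -0.02.

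Also of the first family, miR-1249-3p read 30.8 and 50.4 units in hypoxic EBs, 24.4 and 23.3 in normoxic EBs and 19.3 and 20.3 in mESCs. One hypoxic EB array lay far above the other, and both lay above all remaining arrays. It was 1.99-fold higher in hypoxic EBs than in mESCs (95% CI 1.26 to 3.13, limma adjusted p = 0.0198), and the 1.65-fold difference from normoxic EBs was not past the threshold (adjusted p = 0.0601). The call against mESCs was lost without any 1 of the normoxic EB or mESC arrays (adjusted p up to 0.0824). The single lower call of the family was miR-1198-5p, within Gripap1, with 56.2 and 60.1 units in hypoxic EBs against 69.5 and 71.2 in mESCs. It was 1.21-fold lower in hypoxic EBs than in mESCs (1.09 to 1.34, adjusted p = 0.0104), but higher in hypoxic EBs without scaling (0.22 on the log2 scale) or with hur scaling (0.06). Without the second mESC array its adjusted p was 0.0608.

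Among numbers from 1300 to below 1900, 4 of 9 entries on all arrays were higher and 1 lower in hypoxic than in normoxic EBs. Of all tested entries, 32.9% were called higher and 25.2% lower. Against mESCs, 6 were higher and 1 lower in hypoxic EBs, beside 41.3% and 33.7% of all tested entries. One of the rises was that of miR-1306-3p, from the Dgcr8 hairpin, with 132 and 147 units in hypoxic EBs, 88.5 and 92.1 in normoxic EBs and 75.4 and 76.2 in mESCs. Its 3 groups did not overlap. It was 1.54-fold higher in hypoxic than in normoxic EBs (95% CI 1.35 to 1.75, limma adjusted p = 0.00741) and 1.83-fold higher than in mESCs (1.61 to 2.08, adjusted p = 0.000853). Normoxic EBs were 1.19-fold above mESCs (1.05 to 1.35, adjusted p = 0.0399), a call lost when any 1 of these 4 arrays was left out (adjusted p up to 0.162).

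Against this run, miR-1839-3p fell, with 30.1 and 32.3 units in hypoxic EBs, 43.1 and 39.9 in normoxic EBs and 53.7 and 50.1 in mESCs. Again the groups did not overlap, here with mESCs highest. It was 1.33-fold lower in hypoxic than in normoxic EBs (95% CI 1.16 to 1.52, limma adjusted p = 0.0143) and 1.66-fold lower than in mESCs (1.45 to 1.90, adjusted p = 0.00159). Normoxic EBs were 1.25-fold below mESCs (adjusted p = 0.0226) as scaled, but above them without scaling, by 0.41 on the log2 scale. The fall against normoxic EBs was lost without the first array of either EB group (adjusted p up to 0.0565), and that between normoxic EBs and mESCs without either mESC array or the second normoxic EB array (up to 0.117).

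The arms of miR-1897, from the lncRNA gene Sox2ot, which overlaps the pluripotency gene Sox2, had different patterns over the groups. The signals of miR-1897-3p were 53.3 and 60.1 units in hypoxic EBs, 37.7 and 41.1 in normoxic EBs and 61.6 and 61.9 in mESCs. Normoxic EBs were thus the lowest group, and hypoxic EBs lay just below mESCs as scaled but 0.37 above them on the log2 scale without scaling. It was 1.44-fold higher in hypoxic than in normoxic EBs (95% CI 1.23 to 1.67, limma adjusted p = 0.0114) and 1.57-fold lower in normoxic EBs than in mESCs (1.34 to 1.83, adjusted p = 0.00493), although without scaling the second difference was 0.08 upwards on the log2 scale. The 3p minus 5p difference within an array, which no scaling factor touches, was -2.35 and -2.46 in hypoxic EBs, -2.64 and -2.57 in normoxic EBs and -1.79 and -1.92 in mESCs. The 2 mESC arrays stood apart from all EB arrays, and the 2 EB groups did not overlap. This difference was not tested.

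Numbers from 1900 to below 2000 form the largest family. In hypoxic against normoxic EBs, 10 of its 16 entries on all arrays were higher and 1 lower. Of all tested entries, 32.9% were called higher and 25.2% lower. Against mESCs, 12 were higher and 2 lower in hypoxic EBs, beside 41.3% and 33.7% of all tested entries. The entry miR-1965 read 30.3 and 32.2 units in hypoxic EBs, 23.1 and 23.5 in normoxic EBs and 14.1 and 15.7 in mESCs, with no overlap between groups. It was 1.34-fold higher in hypoxic than in normoxic EBs (95% CI 1.17 to 1.53, limma adjusted p = 0.0136) and 1.56-fold higher in normoxic EBs than in mESCs (1.37 to 1.79, adjusted p = 0.00341). The first call was lost without the first normoxic or the second hypoxic EB array (adjusted p up to 0.0614). The second call held in all 19 alternative settings, as did the 2.09-fold rise of hypoxic EBs over mESCs (adjusted p = 0.000623).

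Within Rnf213 lies miR-1932, with 20.8 and 22.2 units in hypoxic EBs, 15.2 and 14.3 in normoxic EBs and 14.03 and 14.4 in mESCs. Here the 2 normoxic groups overlapped and hypoxic EBs stood above both. The rise was 1.46-fold over normoxic EBs (95% CI 1.30 to 1.64, limma adjusted p = 0.00741) and 1.51-fold over mESCs (1.35 to 1.70, adjusted p = 0.00172), with no call between normoxic EBs and mESCs (1.04-fold, adjusted p = 0.533).

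Another shape was that of miR-1947-3p, with 21.5 and 26.7 units in hypoxic EBs, 14.2 and 16.8 in normoxic EBs and 31.1 and 28.6 in mESCs. Normoxic EBs were lowest and mESCs highest, with no overlap, although without scaling hypoxic EBs lay 0.18 above mESCs on the log2 scale. It was 1.93-fold lower in normoxic EBs than in mESCs (95% CI 1.48 to 2.52, limma adjusted p = 0.00733) and 1.55-fold higher in hypoxic than in normoxic EBs (1.19 to 2.03, adjusted p = 0.0231). Without scaling neither difference was past the threshold, and the rise over normoxic EBs was lost without the first normoxic EB, the second hypoxic EB or either mESC array (adjusted p up to 0.105). Normoxic EBs were also lowest for miR-3092-3p, of the family from 3000 to below 3100, with hypoxic EBs and mESCs overlapping. It read 21.4 and 26.9 units in hypoxic EBs, 17.2 and 18.8 in normoxic EBs and 28.6 and 26.7 in mESCs, and was 1.54-fold lower in normoxic EBs than in mESCs (1.21 to 1.96, adjusted p = 0.0189). That call was lost without any 1 of these 4 arrays (adjusted p up to 0.1), and without scaling the difference was 0.11 upwards on the log2 scale.

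Falls of hypoxic EBs against mESCs in this family were those of miR-1983 and miR-1949. In hypoxic EBs miR-1983 read 18.9 and 19.0 units, against 24.4 and 25.1 in normoxic EBs and 30.7 and 29.8 in mESCs. The pairs of arrays lay close together and the groups did not overlap. It was 1.31-fold lower in hypoxic than in normoxic EBs (95% CI 1.20 to 1.42, limma adjusted p = 0.00741), 1.60-fold lower in hypoxic EBs than in mESCs (1.47 to 1.74, adjusted p = 0.000581) and 1.22-fold lower in normoxic EBs than in mESCs (1.12 to 1.33, adjusted p = 0.00784), the last turning to 0.44 upwards on the log2 scale without scaling and lost without the first mESC array (adjusted p = 0.0606). For miR-1949 the signals were 769 and 863 units in hypoxic EBs, 996 and 930 in normoxic EBs and 1139 and 1075 in mESCs, with mESCs highest and hypoxic EBs lowest. It was 1.36-fold lower in hypoxic EBs than in mESCs (1.17 to 1.58, adjusted p = 0.00808), and 0.05 higher on the log2 scale without scaling.

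The arms of miR-1943, within Tmem184b, differed in pattern between cell states. In hypoxic EBs miR-1943-5p read 11.8 and 14.2 units, against 10.04 and 10.5 in normoxic EBs and 5.87 and 6.40 in mESCs, and miR-1943-3p read 14.5 and 16.4 in hypoxic EBs, 6.20 and 11.0 in normoxic EBs and 17.9 and 16.2 in mESCs. The 5p arm was lowest in mESCs, where the 3p arm was among its highest values as scaled. The 5p arm was 1.67-fold higher in normoxic EBs than in mESCs (95% CI 1.37 to 2.05, limma adjusted p = 0.00666) and 2.11-fold higher in hypoxic EBs than in mESCs (1.73 to 2.58, adjusted p = 0.00161). The 3p arm was 2.06-fold lower in normoxic EBs than in mESCs (1.20 to 3.54, adjusted p = 0.0421), a call lost without either mESC array and without either hypoxic EB array, which enter through the shared estimate of spread (adjusted p up to 0.165). The 3p minus 5p difference within an array was 0.29 and 0.21 on the log2 scale in hypoxic EBs, -0.69 and 0.07 in normoxic EBs and 1.61 and 1.34 in mESCs, so that every EB array lay below both mESC arrays.

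**Figure D5:**
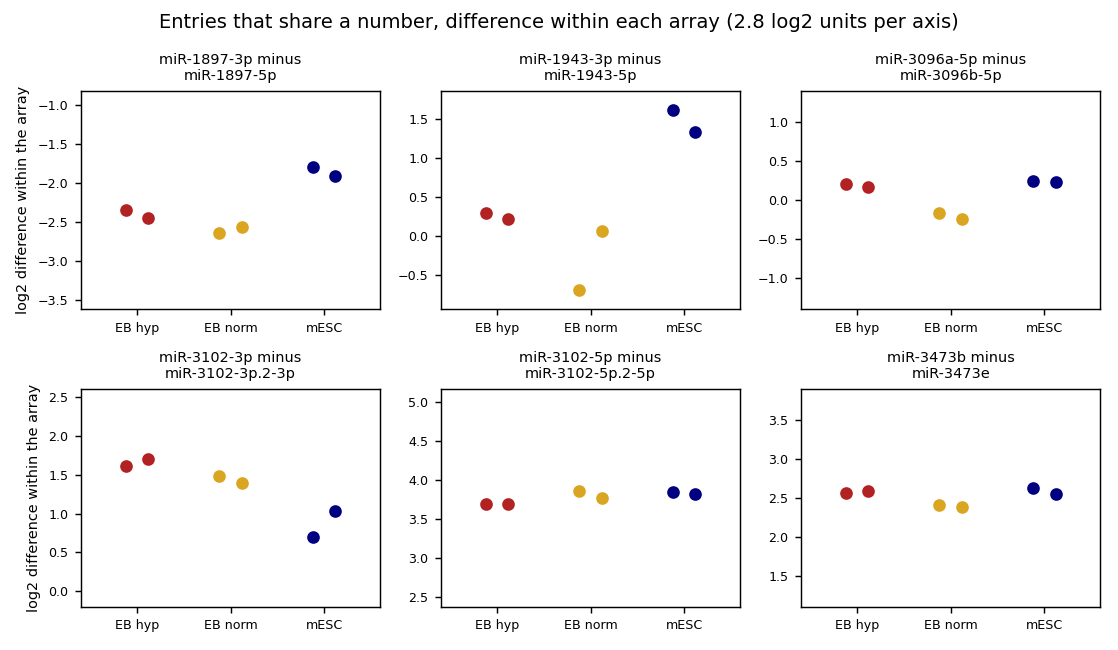
Log2 signal of 1 entry minus that of another with the same number within each array (vertical axes, each spanning 2.8 log2 units), in hypoxic EBs (red), normoxic EBs (gold) and mESCs (navy). The mESC arrays stand apart from all EB arrays for the miR-1897 and miR-1943 arms and for the 3p entries of miR-3102, while miR-3096a-5p minus miR-3096b-5p is lowest in normoxic EBs.

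Among numbers from 3000 to below 3100, 8 of 19 entries on all arrays were higher and 2 lower in hypoxic than in normoxic EBs. Of all tested entries, 32.9% were called higher and 25.2% lower. Against mESCs, 10 were higher and 1 lower in hypoxic EBs, beside 41.3% and 33.7% of all tested entries. From the Lpar1 locus, miR-3095-3p read 95.6 and 104 units in hypoxic EBs, 74.3 and 74.2 in normoxic EBs and 54.5 and 53.6 in mESCs. The 3 groups were well apart. It was 1.34-fold higher in hypoxic than in normoxic EBs (95% CI 1.21 to 1.49, limma adjusted p = 0.00908), and its 1.37-fold rise in normoxic EBs over mESCs (1.23 to 1.53, adjusted p = 0.00479) held in all 19 alternative settings. It has 47.8% G and C and is, with miR-3472, 1 of 2 that rose among the 6 high-numbered entries with 40% to 50%.

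At 84% G and C, miR-3077-5p read 94.8 and 110 units in hypoxic EBs, 69.8 and 70.6 in normoxic EBs and 61.1 and 62.9 in mESCs. It was 1.45-fold higher in hypoxic than in normoxic EBs (95% CI 1.24 to 1.70, limma adjusted p = 0.011) and 1.65-fold higher than in mESCs (1.41 to 1.92, adjusted p = 0.00216). The first call was lost without the first normoxic EB array (adjusted p = 0.0543). The hairpin of miR-3093 lies 340 bases from that of the neural miRNA gene Mir9-1, within the lncRNA gene Gm3764. Its 3p arm read 21.4 and 25.3 units in hypoxic EBs, 15.7 and 15.9 in normoxic EBs and 6.58 and 13.8 in mESCs. The mESC arrays were wide apart, and the 2.43-fold rise of hypoxic EBs over mESCs (1.22 to 4.85, adjusted p = 0.0312) was lost without either array of either EB group (adjusted p up to 0.158).

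Entries of number 3096 were also measured on all 6 arrays. Within an array, miR-3096a-5p minus miR-3096b-5p was 0.20 and 0.17 on the log2 scale in hypoxic EBs, -0.16 and -0.25 in normoxic EBs and 0.24 and 0.23 in mESCs. Both normoxic EB arrays lay below the other 4, and the difference was not tested.

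In this family the falls of hypoxic EBs were small. For miR-3068-3p the signals were 20.5 and 23.4 units in hypoxic EBs, 27.4 and 28.3 in normoxic EBs and 22.8 and 24.2 in mESCs, so that normoxic EBs stood above both other groups. It was 1.27-fold lower in hypoxic than in normoxic EBs (95% CI 1.09 to 1.48, limma adjusted p = 0.0265). The level of miR-3069-3p, within Scarna13, was 50.3 and 56.4 units in hypoxic EBs, 66.2 and 61.9 in normoxic EBs and 73.3 and 70 in mESCs. It was 1.20-fold lower in hypoxic than in normoxic EBs (1.04 to 1.39, adjusted p = 0.0441) and 1.34-fold lower in hypoxic EBs than in mESCs (1.16 to 1.56, adjusted p = 0.00808), the second turning to 0.07 upwards on the log2 scale without scaling. Leaving out any array but the second hypoxic EB one ended both calls against normoxic EBs, with adjusted p-values up to 0.0966 for miR-3068-3p and 0.167 for miR-3069-3p. The 4 entries that fell in hypoxic against normoxic EBs were thus miR-1839-3p, miR-1983, miR-3068-3p and miR-3069-3p, and the 3 with a sequence had 45.5% to 47.6% G and C, below the median of 63.6%. With hur scaling none of the 4 was past the threshold.

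Among numbers from 3100 to below 4000, 12 of 19 entries on all arrays were higher and 0 lower in hypoxic than in normoxic EBs. Of all tested entries, 32.9% were called higher and 25.2% lower. Against mESCs, 15 were higher and 1 lower in hypoxic EBs, beside 41.3% and 33.7% of all tested entries. Number 3473 gave 4 of the family's 21 detected entries. Brightest of these, miR-3473b read 1405 and 1557 units in hypoxic EBs, 1224 and 1199 in normoxic EBs and 931 and 924 in mESCs. It was 1.22-fold higher in hypoxic than in normoxic EBs (95% CI 1.08 to 1.38, limma adjusted p = 0.0227), 1.59-fold higher in hypoxic EBs than in mESCs (1.41 to 1.80, adjusted p = 0.00146) and 1.31-fold higher in normoxic EBs than in mESCs (1.16 to 1.47, adjusted p = 0.0102). Its 3 groups did not overlap. The first call was lost without either normoxic EB or either mESC array (adjusted p up to 0.0726) and the last without either mESC array (up to 0.0594).

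With the same seed, miR-3473e read 239 and 260 units in hypoxic EBs, 230 and 231 in normoxic EBs and 151 and 158 in mESCs. Both EB groups stood clear of mESCs and near each other. It was 1.49-fold higher in normoxic EBs than in mESCs (95% CI 1.33 to 1.67, limma adjusted p = 0.00289) and 1.61-fold higher in hypoxic EBs than in mESCs (1.44 to 1.80, adjusted p = 0.00112), both in all 19 alternative settings. The 2 EB groups did not differ beyond the threshold (1.08-fold, 0.966 to 1.21, adjusted p = 0.166).

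Of miR-3473a the signals were 220 and 243 units in hypoxic EBs, 162 and 159 in normoxic EBs and 140 and 136 in mESCs, with the largest step between the EB groups. It was 1.44-fold higher in hypoxic than in normoxic EBs (95% CI 1.28 to 1.62, limma adjusted p = 0.00768), and 1.16-fold higher in normoxic EBs than in mESCs (1.03 to 1.31, adjusted p = 0.0473). The second call was lost without any 1 of the 4 arrays (adjusted p up to 0.171). Within an array, miR-3473a minus miR-3473e was -0.12 and -0.10 on the log2 scale in hypoxic EBs, -0.51 and -0.53 in normoxic EBs and -0.11 and -0.22 in mESCs. The normoxic EB arrays stood apart from the other 4 although the probes' targets share 14 bases, and this was not tested.

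The X-linked miR-3472, within Rtl4, read 57.6 and 63.3 units in hypoxic EBs, 38.5 and 38.7 in normoxic EBs and 44.5 and 44.9 in mESCs. Hypoxic EBs were highest and normoxic EBs lowest, without overlap. It was 1.57-fold higher in hypoxic than in normoxic EBs (95% CI 1.40 to 1.75, limma adjusted p = 0.00694) and 1.35-fold higher than in mESCs (1.21 to 1.51, adjusted p = 0.00352), with both calls kept under all 6 other scalings. The 1.16-fold fall in normoxic EBs against mESCs (adjusted p = 0.0462) turned to 0.52 upwards on the log2 scale without scaling and was lost without any 1 of those 4 arrays (adjusted p up to 0.162).

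Running against its family, miR-3106-5p was lower in both EB groups than in mESCs. It read 28.1 and 30.7 units in hypoxic EBs, 27.1 and 28.2 in normoxic EBs and 58.5 and 61.3 in mESCs. The 2 EB groups overlapped, and both mESC arrays lay far above them. It was 2.04-fold lower in hypoxic EBs than in mESCs (95% CI 1.80 to 2.30, limma adjusted p = 0.000569) and 2.16-fold lower in normoxic EBs than in mESCs (1.92 to 2.45, adjusted p = 0.000757), both in all 19 alternative settings.

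The hairpin of miR-3102, within Arhgef17, gave 4 detected entries. Its main 5p arm, miR-3102-5p, read 1950 and 2236 units in hypoxic EBs, 1621 and 1584 in normoxic EBs and 1423 and 1451 in mESCs. It was 1.30-fold higher in hypoxic than in normoxic EBs (95% CI 1.13 to 1.51, limma adjusted p = 0.0186), a call lost without either normoxic EB array (adjusted p up to 0.0711), and 1.45-fold higher than in mESCs (1.26 to 1.68, adjusted p = 0.00392). The 3p arm, miR-3102-3p, rose more, with 63.7 and 74.0 units in hypoxic EBs, 44.8 and 50.3 in normoxic EBs and 29.7 and 33.5 in mESCs. It was 2.18-fold higher in hypoxic EBs than in mESCs (1.75 to 2.70, adjusted p = 0.00168) and 1.51-fold higher in normoxic EBs than in mESCs (1.21 to 1.87, adjusted p = 0.016), the second call lost without the first mESC or the second normoxic EB array (adjusted p up to 0.0848). Whether the arms differ in their rise was not tested. Within an array, miR-3102-3p minus the adjoining miR-3102-3p.2-3p was 1.61 and 1.70 on the log2 scale in hypoxic EBs, 1.48 and 1.39 in normoxic EBs and 0.70 and 1.04 in mESCs, with no overlap between groups.

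Other entries of this family followed the order hypoxic EBs, normoxic EBs, mESCs. In miR-3572-5p, within Cnot3, the signals were 40.1 and 44.3 units in hypoxic EBs, 31.9 and 32.3 in normoxic EBs and 22.0 and 24.6 in mESCs, a rise of 1.81-fold in hypoxic EBs over mESCs (95% CI 1.55 to 2.12, limma adjusted p = 0.0015). In miR-3474, within Actr5, they were 29.5 and 33.9 units in hypoxic EBs, 24.2 and 23.8 in normoxic EBs and 16.2 and 18.1 in mESCs, a rise of 1.85-fold (1.55 to 2.20, adjusted p = 0.00188). Neither entry's arrays overlapped between groups.

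Of the 89 entries, 19 were not detected on all 6 arrays. On neither mESC array were 16 detected, and 3 were detected on 1. On neither normoxic EB array were 3 detected, and 7 were detected on 1. All are dim, and no fold is given against a group in which an entry was not detected, since undetected entries enter the fit at a common floor. Detected on both arrays of both EB groups and on no mESC array, miR-3085-5p read 13.3 and 14.8 units in hypoxic EBs and 6.56 and 7.54 in normoxic EBs, 1.99-fold higher in hypoxic than in normoxic EBs (95% CI 1.68 to 2.37, limma adjusted p = 0.00694). Its other arm was detected on all 6 arrays.

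Likewise, miR-1945 read 13.3 and 14.8 units in hypoxic EBs and 9.44 and 9.73 in normoxic EBs, 1.46-fold higher in hypoxic EBs (95% CI 1.29 to 1.66, limma adjusted p = 0.00768). Of 18 alternative settings, 3 lost that call, among them no scaling (limma adjusted p = 0.0752). For miR-3076-5p the signals were 14.8 and 14.5 units in hypoxic EBs and 11.0 and 12.4 in normoxic EBs, 1.26-fold higher in hypoxic EBs (1.10 to 1.44, adjusted p = 0.0212), a call lost without either hypoxic EB or either mESC array (up to 0.0765). Neither was detected in mESCs. Detected in hypoxic EBs alone were miR-1960 at 8.80 and 4.28 units, miR-1966-5p at 4.15 and 4.41 units and miR-3473c at 8.0 and 13.1 units. Detection in hypoxic EBs alone brought these 3 entries into the set, so no test is given for them. The sequence of miR-3473c has no stretch of 10 or more bases in common with its lettered relatives.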

How the data were processed

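Total RNA of 6 samples was read on single-colour (Cy3) Agilent mouse miRNA arrays. Per the file headers, the deposited scanner files give for every miRNA an intensity (the total gene signal) with its error, and whether it was detected. Undetected entries were deposited with an intensity of 0.1. The labels describe a labelling kit for amplified cRNA, usual for messenger RNA, and which labelling was used here is not settled. Scanner software is not given in the sources used here. The authors' table of the series repeats these intensities and adds a normalized ratio of signal to a control value, used as an alternative. This ratio gave the same log2 differences as no scaling, though both count among the 6 other scalings and the 19 alternative settings. Left out were 6 columns of that table, which belong to 2 arrays with no listed sample.

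Signals were divided by the array's 75th percentile over the 391 entries that all 6 arrays detected, brought back to the mean percentile, set to at least 2.91 and log2-transformed. The 484 entries with detection on both arrays of some group went into limma 3.58.1 (lmFit and eBayes, R 4.3.3) with 3 residual and 1.43 prior degrees of freedom, adjusted by Benjamini-Hochberg per comparison at 0.05. Adjusted p-values of entries come from this fit, and intervals cover 95%. The number of arrays limits the precision. Excepted from the name rule were 8 numbers.

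The entries and lists were chosen with earlier results of these data known. Named entries are the 10 brightest, up to 8 rises and 8 falls per comparison, up to 6 detected in 1 group only, those sharing a number, and a fixed list, of which a part is printed. The fit was tested on simulated data. Alternatives were other scalings, floors, filters, fits and leaving out each array. Figures were drawn with matplotlib 3.10.9.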

Additional observations from a re-analysis of the deposited data

How the results depend on the processing

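The median log2 difference of the high-numbered entries measured in both groups stayed above 0 in all 19 alternative settings of each comparison. For hypoxic over normoxic EBs it was 0.38 over 79 entries, 0.30 with the percentile over all mouse miRNAs, 0.25 with quantile normalization, 0.15 without scaling and with the authors' normalized ratio, 0.62 with hur scaling, and 0.30 to 0.46 leaving out 1 array. For hypoxic EBs over mESCs it was 0.55, with 0.45 for the percentile over all miRNAs, 0.63 for median scaling, 1.04 without scaling and with the authors' ratio, 0.89 with hur scaling, and 0.44 to 0.64 leaving out 1 array. For normoxic EBs over mESCs it was 0.21, with 0.19 for the percentile over all miRNAs and for the floor 4 times as high, 0.29 for median scaling, 0.28 for quantile normalization, 0.93 without scaling and with the authors' ratio, 0.31 with hur scaling, and 0.18 to 0.23 leaving out 1 array.

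Counts of calls over all 89 entries, which include entries at the floor in a group that had to differ, moved more. For hypoxic over normoxic EBs, 47 were higher and 4 lower, with 31 and 7 after quantile normalization, 7 and 8 without scaling and with the authors' ratio, 1 and 1 without a filter (1247 entries tested), 26 to 51 higher and 1 to 6 lower leaving out 1 array, and 8, 7, 0 and 2 lower with the percentile over all miRNAs, median scaling, hur scaling and the 2 groups' arrays alone. For hypoxic EBs over mESCs, 63 were higher and 6 lower, with 41 higher without a filter, 48 to 57 higher and 5 to 9 lower leaving out 1 array, and 11, 1 and 3 lower with the percentile over all miRNAs, without scaling (also the authors' ratio) and with hur scaling. For normoxic EBs over mESCs, 30 were higher and 8 lower, with 72 and 1 without scaling and with the authors' ratio, 47 higher with hur scaling, 13 higher with the floor 4 times as high, 10 and 2 without a filter, and 12 to 38 higher and 3 to 9 lower leaving out 1 array. Of all 484 tested entries, 159 were higher and 122 lower in hypoxic than in normoxic EBs. Without scaling these counts were 24 and 115, and with hur scaling 231 and 15. For hypoxic EBs over mESCs they were 200 and 163, 251 and 19 without scaling, and 251 and 60 with hur scaling. For normoxic EBs over mESCs they were 126 and 122, 326 and 11, and 184 and 100 in that order. Other settings are given without such a background. The cause of these moves was not tested.

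Signs turned for called and uncalled differences of the entries described. Without scaling, and with the authors' normalized ratio, this was so in normoxic EBs over mESCs for miR-3963 (0.56), miR-3968 (0.71), miR-1187 (0.58), miR-3082-5p (0.55), miR-2137 (0.62), miR-1897-3p (0.080), miR-3092-3p (0.11), miR-1839-3p (0.41), miR-1983 (0.44), miR-3472 (0.52), miR-1198-5p (0.59), miR-1949 (0.53) and miR-3069-3p (0.57), in hypoxic EBs over mESCs for miR-1198-5p (0.22), miR-1949 (0.055), miR-3069-3p (0.069), miR-1897-3p (0.37), miR-1943-3p (0.35), miR-1947-3p (0.18), miR-3068-3p (0.40), miR-3092-3p (0.29), miR-3963 (0.19) and miR-3968 (0.24), and in hypoxic over normoxic EBs for miR-3106-5p (-0.14) and miR-3473e (-0.12), all as log2 differences. With hur scaling, turns in hypoxic EBs over mESCs were those of miR-1198-5p (0.065), miR-1897-3p (0.21), miR-1943-3p (0.20), miR-1947-3p (0.024), miR-3068-3p (0.24), miR-3092-3p (0.13), miR-3963 (0.033) and miR-3968 (0.080), with miR-1198-5p (0.098) and miR-3963 (0.093) in hypoxic over normoxic EBs and miR-3968 (0.084; 0.066 with median scaling) in normoxic EBs over mESCs. Quantile normalization turned miR-3963 in both comparisons with mESCs (0.069 in each), miR-1187 (0.078), miR-2137 (0.20) and miR-3472 (0.013) in normoxic EBs over mESCs, and miR-3106-5p (-0.096) and miR-3473e (-0.029) in hypoxic over normoxic EBs. Leaving out the first hypoxic EB array turned miR-3963 in the same comparison (0.012).

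With the replicate number as a block, 47 entries were higher and 3 lower in hypoxic than in normoxic EBs, 60 and 6 in hypoxic EBs against mESCs, and 34 and 6 in normoxic EBs against mESCs. These counts are over all 89 entries, and none over all tested entries is given for this fit. The numbers share no stated culture, and the correlations of same-numbered arrays' deviations were 0.11, 0.15 and -0.03, so they were not read as pairs. Signals near the floor have a large relative error, and calls of dim entries depend on it.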
